A study of Mus musculus with 21 samples.

Results

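The p200 genes, also named Ifi200 genes, form a mouse gene family on chromosome 1, and they were followed here together with Aim2 in bone marrow-derived macrophages. The 10 members were Ifi202b, Ifi203, Ifi204, Ifi205, Ifi207, Ifi208, Ifi209, Ifi213, Ifi214 and Aim2, out of 25067 genes with counts, and all 10 were among the 12529 genes that passed the expression filter. The members were selected on measured values: the list was drawn up because Ifi202b counts were nearly absent in wild-type (WT) macrophages and high in macrophages labelled as lacking Nur77. For that reason every difference between the genotypes is given for these members as a description without a test. The responses to lipopolysaccharide (LPS) within a genotype, and the difference between those responses, were not named in that reason and were tested. The list was drawn up with earlier results of these data known. The difference between responses also contains the contrast of the genotypes. These tests are therefore not independent of the choice.

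The proteins of this family carry a HIN domain, which binds double-stranded DNA, and most also carry a pyrin domain, through which they meet other pyrin proteins. Aim2 binds DNA in the cytosol and joins the adaptor ASC and caspase-1 in an inflammasome, which matures interleukin-1 beta and opens the cell to pyroptosis. Ifi202b encodes p202, which has HIN domains but no pyrin domain and is known to restrain AIM2, and Ifi204 encodes p204, which is linked to DNA sensing through STING. Most genes of the family are induced by type I interferon, which macrophages release after Toll-like receptor 4 meets LPS, and the level of Ifi202b is known to differ between inbred mouse strains.

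Marrow came from male mice of 6 to 12 weeks and was grown for 7 days with medium conditioned by L929 fibroblasts, a source of macrophage growth factor. The strain tag of all 21 libraries reads C57Bl6/J. WT libraries carry the genotype tag wt and were titled WT, numbers 1 to 4. The other libraries were titled Nur77-KO, numbers 2 to 4, and their genotype tag reads cre; the labels do not say which Cre this is, or whether the deletion was germline or confined to some cells. Nur77 is a nuclear receptor encoded by Nr4a1. Each genotype was sampled untreated (0 h) and after 4 h and 18 h with 100 ng/ml LPS, which gave 4 WT and 3 labelled-KO libraries at each of 3 times. The labels do not say that a number marks a separate mouse, so the p-values measure the spread between libraries.

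Counts of the 1 transcript chosen for each gene summed to 12301504 to 29650081 per library. Nr4a1 itself stood at 14.7 ± 1.27 CPM (gene counts scaled to the TMM-adjusted library size; SD, n = 4) in WT and 12.3 ± 0.114 (n = 3) in labelled-KO libraries at 0 h, at 3.11 ± 2.78 and 0.871 ± 0.34 at 4 h, and at 1.1 ± 0.159 and 2.85 ± 0.698 at 18 h. The labels do not give the deleted stretch of the gene, so this level does not check the labels, and the libraries are called labelled KO throughout. All 9 macrophage markers passed the filter, with a summed level of 13130.4 to 25446 CPM per library. The 8 stromal markers, of which 7 passed the filter, summed to 131 to 234 CPM in labelled-KO and 3.75 to 137 CPM in WT libraries at 0 h, and to 44.0 to 831 and 12.7 to 56.2 CPM at 18 h. The 10 neutrophil markers summed to 76.7 to 130.3 CPM in labelled-KO and 27.6 to 48.5 CPM in WT libraries at 0 h, and to 327 to 461 and 190 to 277 CPM at 18 h. At 4 h stromal markers summed to 33.8 to 522 CPM in labelled-KO and 3.56 to 69.3 CPM in WT libraries. Neutrophil markers summed to 143 to 201 and 97.8 to 149 CPM at 4 h. For stromal, neutrophil, monocyte and dendritic cell markers the ranges of the genotypes overlapped at 4 h. At 18 h the 4 monocyte markers summed to 331 to 410.5 CPM in labelled-KO and 254 to 284 CPM in WT libraries, and the 8 dendritic cell markers to 17.8 to 24.5 and 9.65 to 11.4 CPM. T and NK cell markers summed to at most 0.64 CPM, B cell markers to at most 4.41 CPM and mast cell markers to at most 0.85 CPM, with Fcer1a at 0 in every library. The part of these other cells in the values that follow was not tested, and in bulk RNA fewer cells of a type and less RNA per cell cannot be told apart.

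Libraries of a group were not alike in these genes. Labelled-KO number 3 lay apart from numbers 2 and 4 at each time, with less Ifi202b and Ifi214 and, after LPS, more Ifi205, Ifi208, Ifi209 and Ifi213. WT number 1 at 0 h was above the other 3 WT libraries in all members but Ifi202b. The mean log2 CPM of 25 interferon-stimulated effector genes was 6.11 in that library and 4.98 to 5.38 in the other WT libraries at 0 h, against 6.20, 4.96 and 5.34 in labelled-KO numbers 2, 3 and 4. The parts of these libraries are given with the results they touch.

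The family lies in a tight cluster, and its copies resemble each other, which limits how far reads can be told apart. The members span chromosome 1 from 173349547 (Aim2) to 174031755 (Ifi205) on mm10. Of all 50-base stretches of a member's GENCODE transcript, 49.6% were also found in a transcript of another gene for Ifi205 (mostly Ifi211), 35.2% for Ifi214 (mostly Ifi209), 35.1% for Ifi209 (mostly Ifi214), 30.2% for Ifi204, 25.9% for Ifi208, 23.9% for Ifi203, 20.1% for Ifi213 and 7.17% for Ifi207. Ifi202b shared 0% and Aim2 0.789%. The sources used here do not give the counting tool, its strand setting or its handling of shared reads. Values of members other than Ifi202b and Aim2 are therefore uncertain to that extent. The comparison used reference transcripts only, so copies or variants of another strain were not tested for any member, Ifi202b and Aim2 included.

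The sequence ahead of the start sites shows the same kinship and holds the letters through which interferon-activated factors are known to act. RefSeq promoter entries (GRCm38.p6, the assembly of mm10) matched 9 of the 10 members. The following stretches, printed 5′ to 3′ on the strand of the gene, show a pair of near copies on opposite sides of WT in labelled KO (Ifi209 and Ifi214), a member far lower in 2 of the labelled-KO libraries (Ifi208), the member with the largest LPS response (Ifi205), the gene that opened the list (Ifi202b) and the DNA receptor (Aim2). They lie at chr1:173630609-173630858 (plus strand), chr1:173535958-173536207 (minus), chr1:173673415-173673627 (plus), chr1:174031811-174032005 (minus), chr1:173982845-173983094 (minus) and chr1:173420354-173420570 (plus), within the 250 bases before the start and shortened where these overlapped an annotated exon. Capitals mark the interferon-stimulated response element (GAAA, any 2 bases, GAAA) in Ifi214, Ifi208 and Ifi205, the NF-kB motif (GGGA, any 2 bases, TTCC) in Ifi209, and the gamma-activated sequence (TTC, any 3 bases, GAA) in Ifi202b.
Ifi209: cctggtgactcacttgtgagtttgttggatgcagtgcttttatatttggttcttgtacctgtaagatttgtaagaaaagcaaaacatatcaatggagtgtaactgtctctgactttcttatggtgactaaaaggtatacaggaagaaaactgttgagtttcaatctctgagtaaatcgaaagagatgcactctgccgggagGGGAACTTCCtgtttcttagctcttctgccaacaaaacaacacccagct
Ifi214: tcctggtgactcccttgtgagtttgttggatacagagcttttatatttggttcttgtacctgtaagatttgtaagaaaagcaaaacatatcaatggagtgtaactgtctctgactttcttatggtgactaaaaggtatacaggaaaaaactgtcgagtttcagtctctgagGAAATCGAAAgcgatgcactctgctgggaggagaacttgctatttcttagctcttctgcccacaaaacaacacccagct
Ifi208: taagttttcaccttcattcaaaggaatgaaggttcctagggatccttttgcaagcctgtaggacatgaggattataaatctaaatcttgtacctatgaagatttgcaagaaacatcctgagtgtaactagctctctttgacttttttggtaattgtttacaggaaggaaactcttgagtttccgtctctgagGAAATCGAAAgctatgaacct
Ifi205: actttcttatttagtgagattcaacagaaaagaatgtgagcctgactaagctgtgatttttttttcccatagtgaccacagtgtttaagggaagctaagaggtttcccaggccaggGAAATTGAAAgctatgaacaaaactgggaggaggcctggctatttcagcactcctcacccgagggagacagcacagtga
Ifi202b: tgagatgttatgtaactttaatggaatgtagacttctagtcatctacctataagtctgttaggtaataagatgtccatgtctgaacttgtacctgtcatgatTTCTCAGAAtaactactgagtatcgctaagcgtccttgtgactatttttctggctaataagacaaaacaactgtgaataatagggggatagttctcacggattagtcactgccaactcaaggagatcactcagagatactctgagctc
Aim2: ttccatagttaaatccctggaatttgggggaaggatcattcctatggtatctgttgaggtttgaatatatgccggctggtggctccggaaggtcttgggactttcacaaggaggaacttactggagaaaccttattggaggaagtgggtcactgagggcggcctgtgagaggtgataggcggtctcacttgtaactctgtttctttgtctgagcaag

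Read in both directions over the 250 bases before the start, the interferon-stimulated response element was present in 6 of the 9 members with an entry (Ifi203, Ifi205, Ifi207, Ifi208, Ifi213 and Ifi214), and in 2.98% of all 32851 promoter entries. The gamma-activated sequence was found in Ifi202b only among the 9, and in 7.02% of all entries. The NF-kB letters were found in Ifi209 only, and in 1.21% of all entries. The short ETS core GAGGAA, which PU.1 and its relatives bind, was present in Aim2, Ifi208, Ifi213 and Ifi214, and in 23.3% of all entries; in the latter 3 it overlaps the response element. The windows of Ifi209 and Ifi214 were identical at 237 of 250 bases (94.8%) and those of Ifi208 and Ifi213 at 233 of 250 (93.2%). A match is a description of letters and shows neither a bound site nor a cause.

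Before LPS the family differed widely in level. On the scale of CPM per kilobase of transcript, which allows genes to be compared (for Ifi213 from NM_001177349, the most counted of its transcripts with a known length), Ifi207 (140.0 ± 52.6, SD, n = 4) and Ifi204 (109 ± 52.1) led in WT, and their ranges overlapped. Ifi203 (57.6 ± 28.8) and Ifi209 (31.0 ± 15.7) followed, each overlapping the gene before it. Aim2 (11.5 ± 3.33), Ifi205 (10.2 ± 4.47), Ifi208 (4.26 ± 2.86) and Ifi213 (2.93 ± 1.91) lay below these, and Ifi214 (0.122 ± 0.0888) and Ifi202b (0.0389 ± 0.035) were lowest. In labelled-KO libraries Ifi202b (87.5 ± 49.2, n = 3) stood second, between Ifi207 (105 ± 12.9) and Ifi203 (87.2 ± 29.8), and all 3 overlapped.

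LPS changed the order. At 4 h in WT, Ifi205 led with 2137 ± 135 CPM per kilobase, followed by Ifi204 (1454 ± 127) and Ifi209 (797 ± 154), with no overlap between these neighbours. At 18 h in WT the same 3 genes led in the same order, at 836 ± 58.4, 718 ± 29.7 and 485 ± 43.7, again without overlap. In labelled-KO libraries Ifi204 led at 4 h (1286 ± 75.7) and at 18 h (932 ± 143), and Ifi202b (1026 ± 367 and 753 ± 157) and Ifi205 (988 ± 317 and 655 ± 436) overlapped it or each other at both times. Aim2 stood eighth of 10 in WT at 4 h (100.4 ± 3.85) and seventh in labelled-KO libraries (97.6 ± 1.92).

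**Figure D1:**
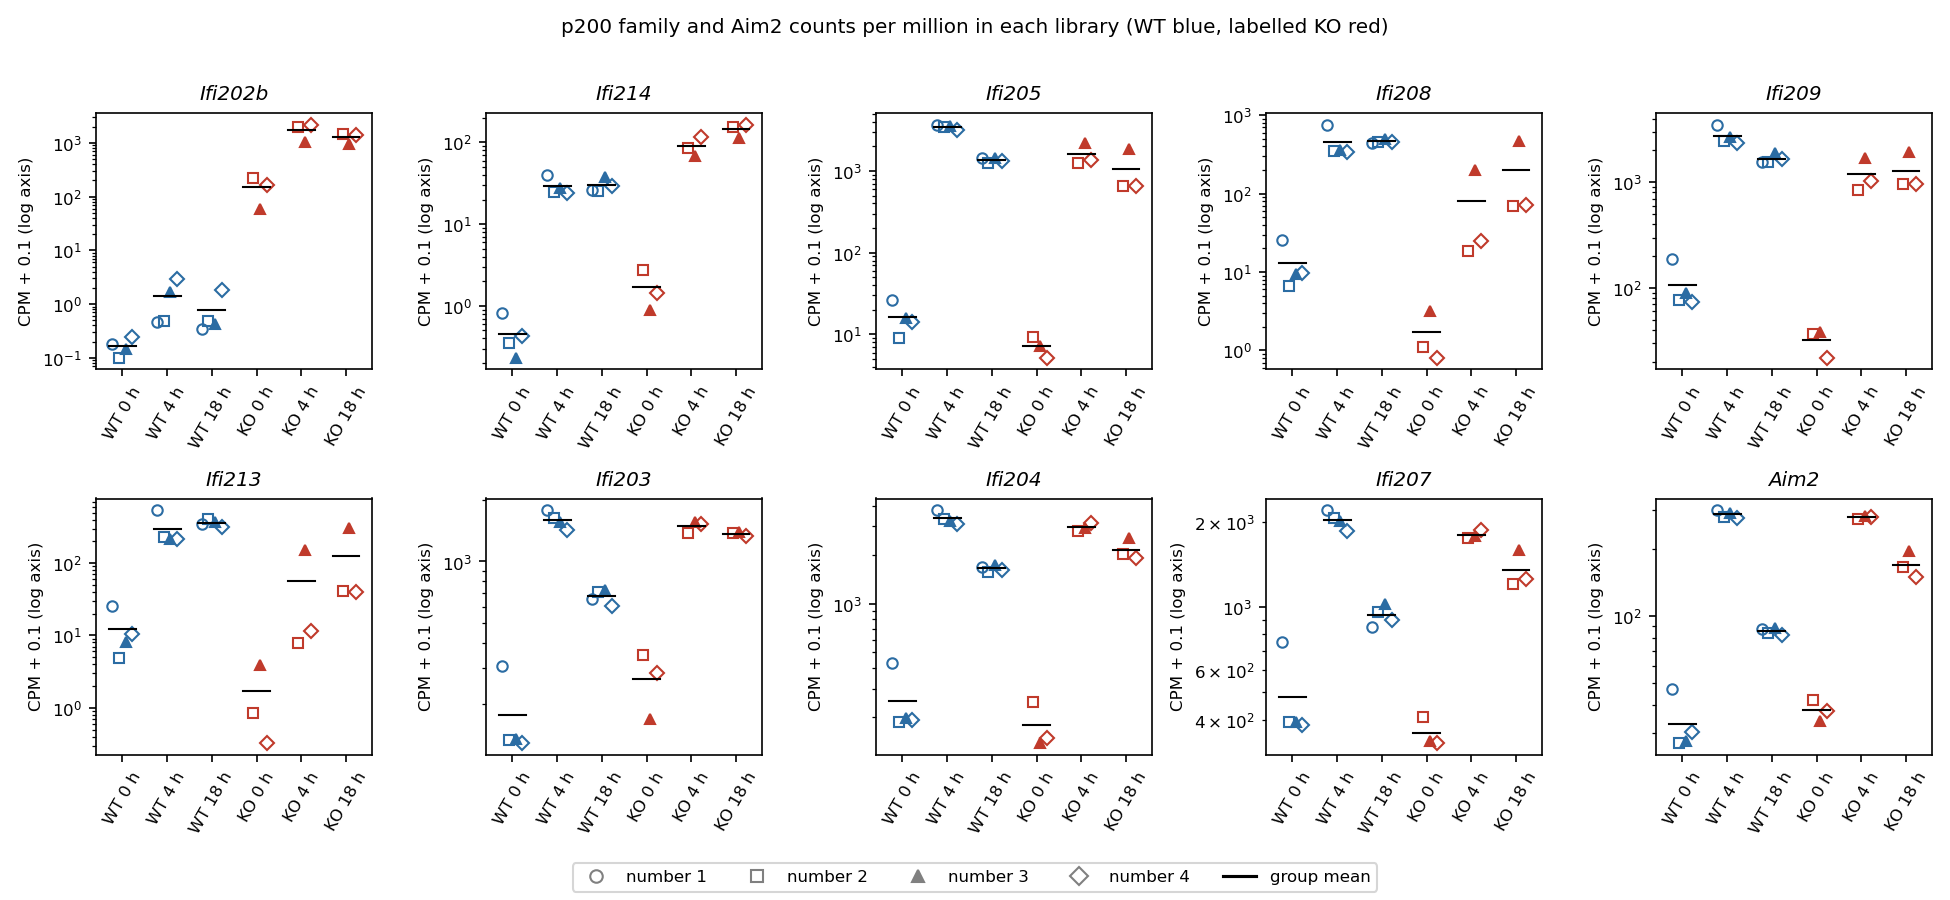
CPM plus 0.1 on a log axis for each of the 10 members in each library, with WT in blue, labelled KO in red, the symbol showing the library's number and the bar the group mean. Every member is higher at 4 h and 18 h than at 0 h in both genotypes, Ifi202b separates the genotypes at every time, and labelled-KO number 3 (filled triangle) lies near WT for Ifi208 and Ifi213 at 18 h.

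Ifi202b was all but silent in WT macrophages and among the higher members in labelled-KO macrophages. In WT its level was 0.0798, 0, 0.0438 and 0.141 CPM in numbers 1 to 4 at 0 h, 0.369, 0.375, 1.55 and 2.87 CPM at 4 h, and 0.244, 0.391, 0.322 and 1.76 CPM at 18 h. In labelled-KO numbers 2, 3 and 4 it was 223, 58.0 and 165 CPM at 0 h, 2011, 1028 and 2183 CPM at 4 h, and 1469, 972 and 1390.1 CPM at 18 h. The genotypes did not overlap at any time, and number 3 was the lowest labelled-KO library at each.

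The WT values of Ifi202b rest on few reads, 7 over the 4 libraries at 0 h, 91 at 4 h and 49 at 18 h. Labelled-KO over WT ratios of Ifi202b were 2320.2 at 0 h (95% counting interval 1126 to 5772), 1208 at 4 h (984 to 1501) and 1889.8 at 18 h (1429 to 2555), and these intervals cover counting error only. Because Ifi202b chose the list, these ratios carry no test. Its other counted RefSeq transcript carried 0.9867 times the count of the one used. WT number 4 held most of the WT reads after LPS: the labelled KO minus WT difference of Ifi202b was 10.22 at 4 h and 10.85 at 18 h on the log2 scale, and 11.23 and 11.89 without that library.

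LPS raised Ifi202b in labelled-KO macrophages, 11.7-fold at 4 h (log2 fold change 3.55, SE 0.44, adjusted p = 2.2e-07) and 8.61-fold at 18 h (3.11, SE 0.43, adjusted p = 1.3e-06). Adjusted p-values here and below, unless another tool is named, are from the quasi-likelihood test of edgeR, adjusted by Benjamini-Hochberg over 12529 genes. In WT, Ifi202b also rose, by 4.36 on the log2 scale at 4 h (SE 1.13, adjusted p = 0.0015) and by 3.28 at 18 h (SE 1.31, adjusted p = 0.031), from the few reads given above. Without WT number 4 at 4 h the earlier rise of Ifi202b was 3.35 (adjusted p = 0.035). With limma-voom the WT rises of Ifi202b were 4.02 (adjusted p = 0.083) and 3.03 (adjusted p = 0.21), and without WT number 4 at 18 h the later rise was 2.25 (adjusted p = 0.2), and without number 1, 2 or 3 at 0 h it was 3.46, 2.9 and 3.18 (adjusted p = 0.063, 0.065 and 0.052).

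Aim2, the receptor of the DNA inflammasome, rose with LPS in both genotypes and was higher in labelled-KO than in WT libraries at 18 h. Its level at 0 h was 46.8, 26.8, 27.4 and 30.2 CPM in WT numbers 1 to 4 and 41.9, 33.8 and 37.3 CPM in labelled-KO numbers 2 to 4. At 4 h it was 298, 279, 289 and 274 CPM in WT and 271, 281 and 279 CPM in labelled-KO libraries. At 18 h it was 87.5, 84.1, 88.6 and 81.9 CPM in WT and 166, 195 and 149 CPM in labelled-KO libraries. The genotypes overlapped at 0 h and 4 h, and at 18 h every labelled-KO library was above every WT library.

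Aim2 rose 8.66-fold at 4 h in WT (log2 3.11, SE 0.14, adjusted p = 5.8e-15) and 7.36-fold in labelled KO (2.88, SE 0.16, adjusted p = 3.4e-13). From 4 h to 18 h it fell by 1.74 on the log2 scale in WT (SE 0.13, adjusted p = 1e-10) and by 0.71 in labelled KO (SE 0.15, adjusted p = 0.00024). Aim2 was still above its 0 h level at 18 h in WT (1.38, SE 0.13, adjusted p = 4.9e-09) and in labelled KO (2.17, SE 0.15, adjusted p = 4e-11).

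Ifi204, Ifi203 and Ifi207 were, like Aim2, apart between the genotypes at 18 h and at no other time. Ifi204, the gene of the STING-linked p204, stood at 431, 187, 197 and 191 CPM in WT and 248, 138 and 149 CPM in labelled-KO libraries at 0 h, and at 3754, 3299, 3226 and 3077 CPM against 2809, 2906 and 3146 CPM at 4 h. At 18 h Ifi204 was 1673, 1574, 1732 and 1618 CPM in WT and 2009, 2515 and 1897 CPM in labelled-KO libraries. Only at 18 h did the genotypes not overlap, with labelled KO higher.

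Ifi203 at 18 h was 653, 711, 723 and 606 CPM in WT and 1372, 1399.8 and 1337 CPM in labelled-KO libraries, after 1421 to 1785 CPM and 1385 to 1564 CPM at 4 h. Ifi207 at 18 h was 849, 961, 1021 and 898 CPM in WT and 1201, 1589.6 and 1251 CPM in labelled KO, after 1857 to 2194 CPM and 1744 to 1871 CPM at 4 h. For both genes the genotypes overlapped at 0 h and 4 h and not at 18 h. Labelled KO minus WT at 18 h was 1.02 (SE 0.24) for Ifi203, 0.53 (SE 0.17) for Ifi207, 0.38 (SE 0.23) for Ifi204 and 0.99 (SE 0.14) for Aim2 on the log2 scale, given without a test.

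Ifi205, Ifi208, Ifi209 and Ifi213 formed a group with lower levels in labelled-KO libraries. After LPS number 3 lay between the others and WT, reached WT or passed it. Ifi205, whose protein is linked to expression of ASC in mouse macrophages, was 26.2, 9.04, 16.0 and 14.2 CPM in WT and 9.11, 7.1 and 5.07 CPM in labelled-KO libraries at 0 h. At 4 h Ifi205 was 3681, 3436, 3515 and 3157 CPM in WT and 1244, 2179.8 and 1356 CPM in labelled KO. At 18 h it was 1429, 1237, 1425 and 1305 CPM in WT and 647, 1867 and 654 CPM in labelled KO. Numbers 2 and 4 were below WT at both LPS times, while number 3 was above all WT libraries at 18 h.

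Ifi208 was split between the labelled-KO libraries. It was 25.4, 6.62, 9.24 and 9.75 CPM in WT and 1.01, 3.1 and 0.704 CPM in labelled-KO numbers 2, 3 and 4 at 0 h. At 4 h Ifi208 was 757, 348, 360.1 and 337 CPM in WT and 18.7, 198 and 24.6 CPM in labelled KO. At 18 h it was 438, 452, 502 and 461 CPM in WT and 69.7, 462 and 71.0 CPM in labelled KO, so number 3 lay inside the WT range and numbers 2 and 4 far below it. Labelled KO minus WT for Ifi208 was -2.50 (SE 0.73) at 4 h and -1.21 (SE 0.69) at 18 h on the log2 scale with number 3, and -4.37 and -2.72 without it.

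Ifi213, the closest copy of Ifi208 by its promoter, followed the same pattern. It was 25.5, 4.85, 7.93 and 10.4 CPM in WT and 0.741, 3.79 and 0.222 CPM in labelled KO at 0 h, and 539, 228, 212 and 216 CPM against 7.65, 149.8 and 11.4 CPM at 4 h. At 18 h Ifi213 was 349.8, 410.1, 371 and 314 CPM in WT and 40.9, 301 and 39.5 CPM in labelled KO. By its chosen transcript it was the only member whose labelled-KO libraries were below all WT libraries at each of the 3 times. Labelled KO minus WT for Ifi213 was -2.43 (SE 0.85) at 4 h and -1.51 (SE 0.8) at 18 h with number 3, and -4.94 and -3.17 without it.

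Some transcripts of Ifi213 also differed between labelled-KO libraries. Of the 6 counted, NR_160907 had the highest mean. The count of transcript NM_001368799 divided by that of NR_160907 was 0.746 to 0.971 in the 12 WT libraries. In labelled-KO numbers 2, 3 and 4 it was 2.03, 0.932 and 1.9 at 4 h and 1.82, 0.86 and 1.74 at 18 h. Number 3 was inside the WT range and numbers 2 and 4 were above it. The ratio of NR_160908 was likewise spread in labelled KO, from 0.777 to 1.76 at 18 h against 0.68 to 0.718 in WT. That of NM_001177349 was not spread at 18 h, with 0.688 to 0.719 against 0.647 to 0.806 in WT. At 4 h it was 1.18 to 1.76 in labelled KO against 1.0 to 1.35 in WT. The ratio of NM_001368798 at 18 h was 0.888 to 0.986 against 0.88 to 0.897. At 0 h the labelled-KO counts of Ifi213 were too few to compare, 6 to 77 for NR_160907. The CPM levels and differences of Ifi213 given above are those of NR_160907. By NM_001368799, numbers 2 and 4 were less far below WT at 4 h and 18 h. At 18 h NR_160907 was 301 CPM in number 3 and 314 CPM in WT number 4, with NM_001368799 ratios of 0.86 and 0.8. By NM_001368799, number 3 was therefore not below all WT libraries at 18 h.

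Ifi209 was 187, 77.1, 88.5 and 74.1 CPM in WT and 36.7, 37.8 and 21.7 CPM in labelled KO at 0 h, and 3508, 2469.9, 2659 and 2328 CPM against 843, 1711 and 1017 CPM at 4 h. At 18 h Ifi209 was 1561, 1568, 1882 and 1653 CPM in WT and 953, 1929 and 960.2 CPM in labelled KO. Labelled KO was below WT in every library at 0 h and 4 h, and at 18 h number 3 was above the highest WT library while numbers 2 and 4 were below the lowest. Labelled KO minus WT was -1.74 (SE 0.33), -1.20 (SE 0.32) and -0.38 (SE 0.31) at 0, 4 and 18 h.

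Ifi214, whose promoter window nearly matches that of Ifi209, was higher in labelled KO. It was 0.719, 0.253, 0.131 and 0.328 CPM in WT and 2.65, 0.788 and 1.33 CPM in labelled KO at 0 h. At 4 h Ifi214 was 39.5, 24.4, 27.9 and 23.8 CPM in WT and 85.0, 67.9 and 117 CPM in labelled KO, and at 18 h 26.4, 25.6, 38.0 and 28.8 CPM against 156, 114 and 165 CPM. The genotypes did not overlap at any time, and number 3 was the labelled-KO library nearest to WT at each. Labelled KO minus WT was 1.95 (SE 0.51), 1.64 (SE 0.23) and 2.29 (SE 0.23) on the log2 scale at 0, 4 and 18 h.

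Counted over the family, labelled-KO libraries were all above WT for 2 members at 0 h (Ifi202b and Ifi214), against 8.99% of all genes tested, and all below WT for 3 (Ifi208, Ifi209 and Ifi213), against 8.72%. At 4 h the counts were the same 2 above (8.47% of all genes) and 4 below, Ifi205 having joined (9.2%). At 18 h 6 members were above (Aim2, Ifi202b, Ifi203, Ifi204, Ifi207 and Ifi214; 18.2% of all genes) and 1 below (Ifi213; 17.6%). Ifi202b and Ifi214 were above WT at all 3 times, as were 0.734% of all genes. Ifi213, by its chosen transcript, was below at all 3, as were 0.854%. The rule that chose the list used this contrast, so the counts are descriptive.

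Labelled-KO number 3 was then set beside numbers 2 and 4 for each member whose values in numbers 2 and 4 were both beyond the WT range in the same direction. This condition held for 5, 6 and 10 of the 10 members at 0, 4 and 18 h, against 23.9%, 28.1% and 49.1% of all genes tested. Number 3 was nearer to WT than both, or had reached or passed WT, in 5 of 5 such members at 0 h. The same held in 6 of 6 at 4 h and 6 of 10 at 18 h. Among all tested genes that met the same condition, the share was 49.3%, 62.9% and 55.1% at these times. The 4 members at 18 h in which number 3 was not nearer to WT were Aim2, Ifi203, Ifi204 and Ifi207, in which it was the highest library. These counts include Ifi202b, which chose the list, and members that lie in one cluster and share sequence. They are therefore descriptive.

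**Figure D2:**
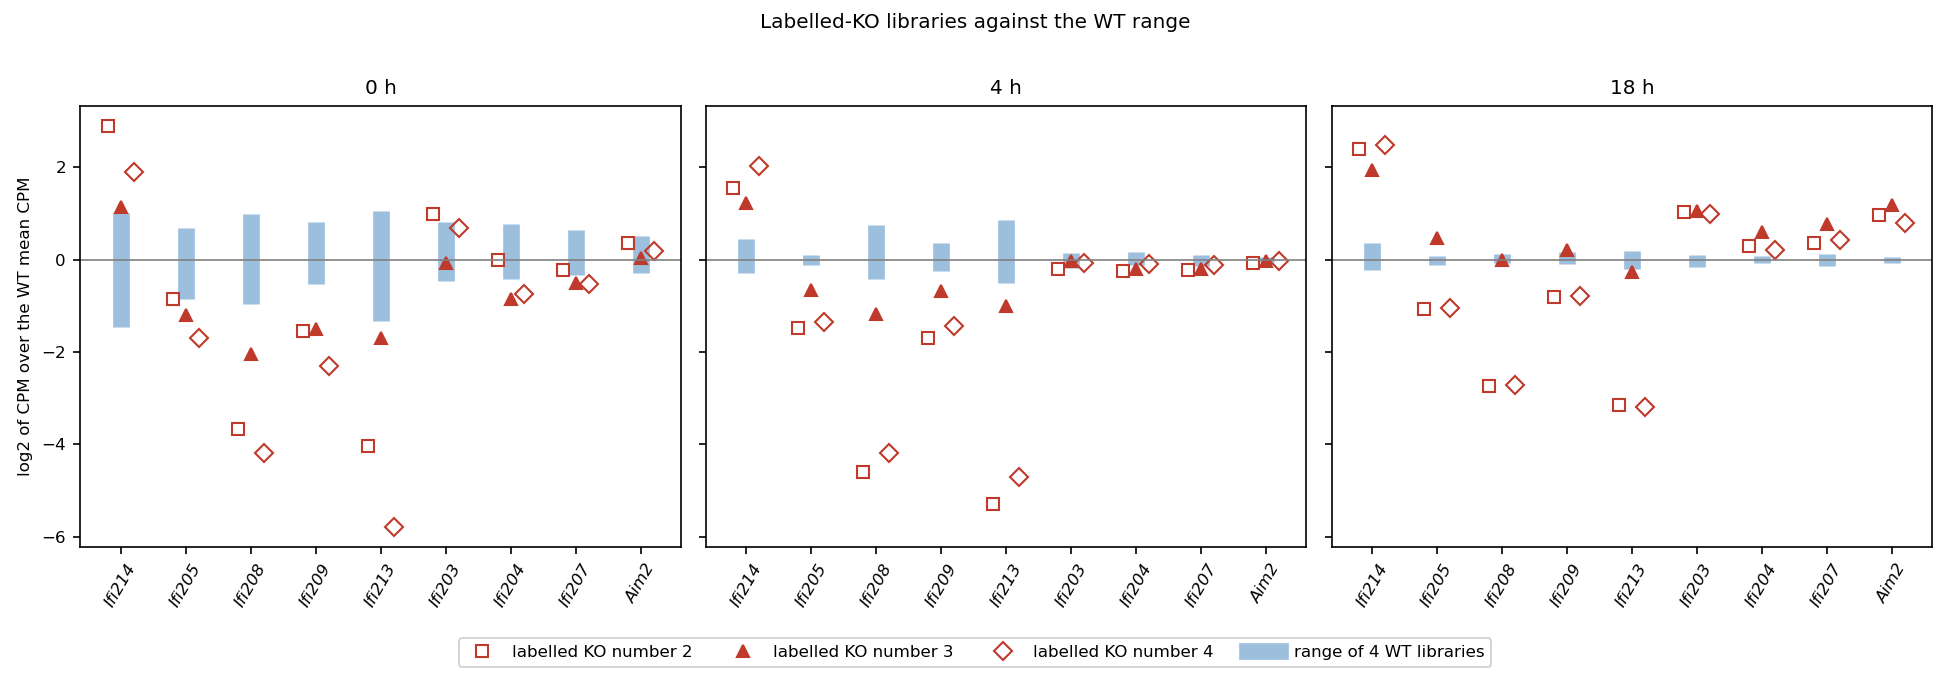
The log2 of each labelled-KO library's CPM over the WT mean for 9 members (Ifi202b is left out because it is nearly absent in WT), by time, with blue bars for the range of the 4 WT libraries. Number 3 (filled triangle) lies nearer to the WT bars than numbers 2 and 4 for Ifi208 and Ifi213 at all 3 times, and Ifi214 is above the bars in every labelled-KO library.

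The response to LPS was shared by the whole family. At 4 h all 10 members rose in WT, against 35.1% of all genes tested, with Ifi202b resting on few reads of untested source. The median log2 fold change was 4.47 against -0.17 over all genes. At 18 h all 10 were above their 0 h level in WT (34.8% of all genes), with a median of 3.62 against -0.05. In labelled KO all 10 rose at 4 h (33.5% of all genes, median 4.62 against -0.14) and at 18 h (34.5%, median 4.45 against -0.08), while 0 fell (38.5% of all genes). All 10 were also called in the other edgeR fits, apart from Ifi202b at 18 h in WT as given above. DESeq2 called 8, having given Ifi208 and Ifi213 no adjusted p.

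Ifi205 gave the largest response, 209-fold at 4 h in WT (log2 7.71, SE 0.39, adjusted p = 8.5e-14) and 227-fold in labelled KO (7.82, SE 0.47, adjusted p = 1.5e-12). Ifi214 followed, with 6.16 (SE 0.35, adjusted p = 4.4e-13) in WT and 5.85 (SE 0.34, adjusted p = 8.6e-13) in labelled KO. Ifi207, which was the highest member per kilobase before LPS, gave the smallest rise at 4 h, with 2.08 (SE 0.17, adjusted p = 2.3e-10) in WT and 2.33 (SE 0.2, adjusted p = 6.1e-10) in labelled KO. The other rises at 4 h in WT ranged from 3.11 for Aim2 to 5.12 for Ifi208.

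The size of the Ifi208 and Ifi213 responses in labelled KO moved with number 3. At 4 h Ifi208 rose by 5.68 (SE 1.01, adjusted p = 3.1e-05), by 4.70 (adjusted p = 7e-06) without number 3 at any time and by 3.81 (adjusted p = 0.00048) without its 4 h library alone. Ifi213 rose by 5.20 (SE 1.17, adjusted p = 0.00044), by 4.45 (adjusted p = 0.00053) and by 2.69 (adjusted p = 0.031) in the same fits. At 18 h Ifi208 rose by 7.01, Ifi213 by 6.39 and Ifi205 by 7.23, and without the 18 h library of number 3 by 5.50, 4.74 and 6.53. Without WT number 1 at 0 h, the 4 h rises in WT were larger, 5.73 for Ifi208, 5.29 for Ifi213 and 6.89 for Ifi214.

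With upper-quartile factors in place of TMM, the median of all genes at 4 h shifted by -0.29 in each genotype, and the shares of all genes called higher and lower became 26.8% and 55.4% in WT (35.1% and 43.0% with TMM) and 26.3% and 52.5% in labelled KO (33.5% and 41.5%). At 18 h in WT they became 28.1% and 44.6% (34.8% and 36.3%), with a shift of -0.16. All 10 members were higher than at 0 h in each of these fits.

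**Figure D3:**
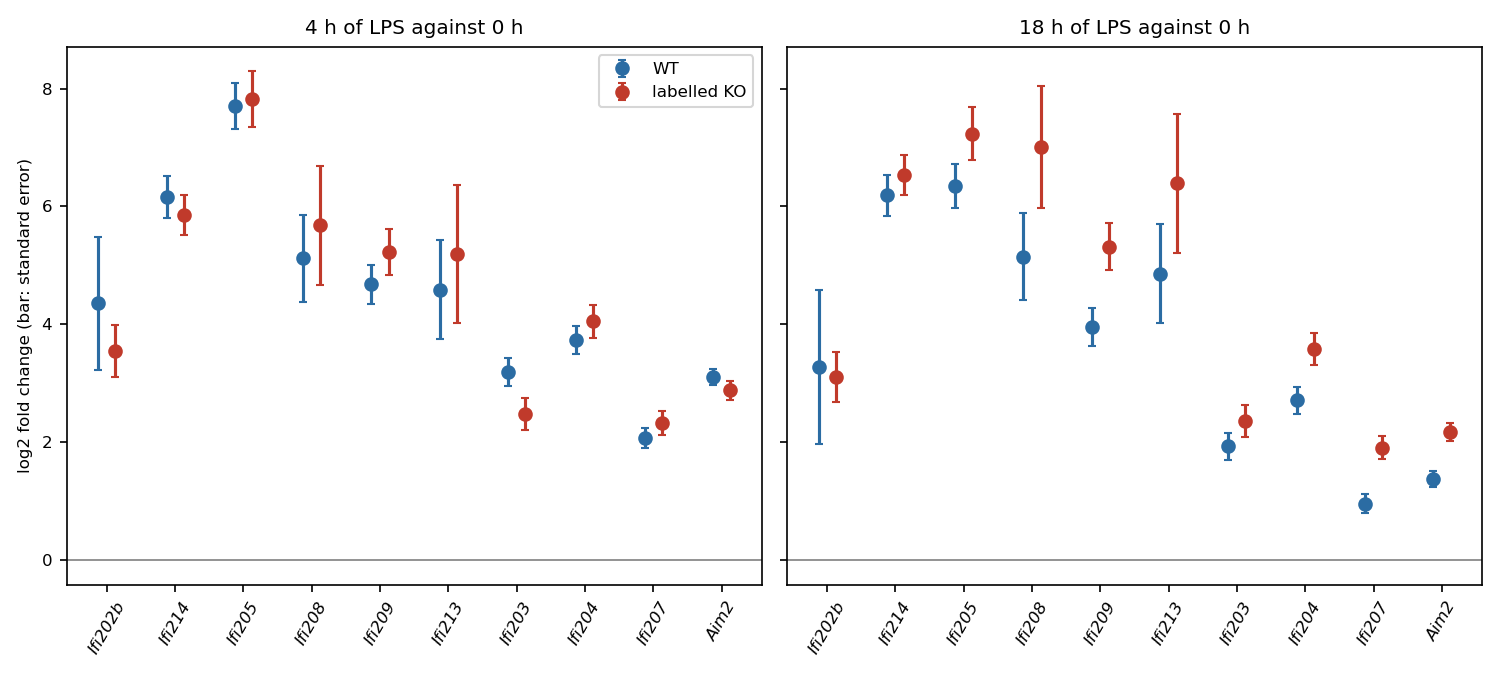
The log2 fold change of each member at 4 h (left) and 18 h (right) of LPS against 0 h, for WT (blue) and labelled KO (red), with bars of 1 standard error from the edgeR fit. All points lie above 0, and the bars of the genotypes overlap or nearly meet for most members at 4 h. At 18 h the labelled-KO point is above the WT point for every member but Ifi202b. Of these, Aim2, Ifi207 and Ifi209 passed the interaction test.

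Between 4 h and 18 h part of the family declined in WT. Of the 10 members 6 fell (34.5% of all genes), namely Aim2, Ifi203, Ifi204, Ifi205, Ifi207 and Ifi209. In the same test 0 rose (37.2% of all genes, and 0 members at an unadjusted p under 0.05). Falls on the log2 scale were -1.25 for Ifi203 (SE 0.22, adjusted p = 4e-05), -1.35 for Ifi205 (SE 0.3, adjusted p = 0.00036), -1.12 for Ifi207 (SE 0.16, adjusted p = 3e-06) and -1.02 for Ifi204 (SE 0.21, adjusted p = 0.00024). The fall of Ifi209 (-0.72, SE 0.28, adjusted p = 0.029) was -0.56 with upper-quartile factors (adjusted p = 0.083) and was not called without WT number 1 at 4 h (-0.58, 0.089) or numbers 1, 2 or 4 at 18 h (-0.68 to -0.71, 0.053 to 0.066). Ifi208 (0.04, SE 0.61), Ifi213 (0.27, SE 0.71), Ifi214 (0.03, SE 0.22) and Ifi202b (-1.08, SE 0.79) did not pass the test. For Ifi202b the difference was -0.08 without WT number 4 at 4 h and -2.11 without WT number 4 at 18 h, where it was called (adjusted p = 0.05 after rounding).

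In labelled KO over the same interval 1 member fell, Aim2 (32.1% of all genes), and 1 rose, Ifi214 (0.68, SE 0.24, adjusted p = 0.017; 33.3% of all genes). Ifi214 was not called with DESeq2 (0.66, adjusted p = 0.11) or without number 2 or 3 at 4 h or number 2 or 4 at 18 h (0.52 to 0.64, adjusted p = 0.05 to 0.097). Without number 3 at any time 3 members rose, Ifi214, Ifi208 (1.69, adjusted p = 0.0051) and Ifi213 (2.04, adjusted p = 0.0074), and 2 fell, Aim2 and Ifi205 (-1, adjusted p = 0.007). With number 3, Ifi208 (1.33, SE 0.74, adjusted p = 0.12), Ifi213 (1.20, SE 0.86, adjusted p = 0.23) and Ifi205 (-0.59, SE 0.34, adjusted p = 0.13) did not pass. Without only its 4 h library, Ifi208 rose by 3.2 (adjusted p = 0.00093) and Ifi213 by 3.7 (adjusted p = 0.0015). Without only its 18 h library they were -0.18 and -0.46 and not called, while Ifi205 (-1.29, adjusted p = 0.00071) and Ifi207 (-0.55, adjusted p = 0.026) fell.

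Whether the genotypes responded differently was tested as an interaction for the 9 members other than Ifi202b. At 4 h 0 of 9 differed, against 0.599% of all genes in the direction of a larger response in labelled KO and 0.2% in the other, and 0 had an unadjusted p under 0.05. DESeq2 and limma-voom also called 0. Estimates at 4 h ran from -0.70 for Ifi203 (SE 0.34, adjusted p = 0.49) to 0.61 for Ifi213 (SE 1.44, adjusted p = 0.94), and without WT number 1 at 0 h that of Ifi203 was -1.13 (adjusted p = 0.014).

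At 18 h 3 of 9 had a larger response in labelled KO (8.57% of all genes) and 0 a smaller one (9.0%). Aim2 differed by 0.80 on the log2 scale (SE 0.2, adjusted p = 0.0085), Ifi207 by 0.95 (SE 0.25, adjusted p = 0.012) and Ifi209 by 1.36 (SE 0.44, adjusted p = 0.038). The median over the 9 was 0.88 against -0.01 over all genes, and all 9 estimates were above 0. Of these, Ifi214 was -0.39 without WT number 1 at 0 h and Ifi213 was -0.12 without labelled-KO number 3 at 18 h. The 9 estimates come from the same libraries and are not independent of each other. Ifi204 had an unadjusted p of 0.015 and an adjusted p of 0.071 (0.87, SE 0.33), and the other members had adjusted p-values of 0.22 to 0.75.

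These 3 calls were lost when labelled-KO number 3 was left out at all times. Without it at any time 0 of 9 passed, with Aim2 at 0.62 (adjusted p = 0.084), Ifi207 at 0.77 (0.096) and Ifi209 at 1.08 (0.11). That fit also called 654 genes higher where the full fit called 1074. Numbers 2 and 4 were not left out at all times in the same way, so the loss is not shown to be particular to number 3. For Aim2 and Ifi207 every other alternative kept the call. Ifi209 was not called with limma-voom (1.22, adjusted p = 0.052), without WT number 1 at 0 h (0.93, 0.094), without numbers 1, 2 or 4 of WT at 18 h (1.33 to 1.36, 0.057 to 0.068), without number 2, 3 or 4 of labelled KO at 0 h (1.13 to 1.5, 0.05 to 0.1) or without number 3 at 18 h (0.94, 0.14). Ifi204 was called without WT number 2 or 4 at 0 h (0.99 and 0.98, adjusted p = 0.045 and 0.046) or labelled-KO number 2 at 0 h (1.18, adjusted p = 0.018).

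Genes that act beside the family were read from lists. Of the other p200 genes, Ifi211 and Mndal had a counted transcript, and both rose in each genotype at 4 h and 18 h. Ifi211 went from 50.7 ± 25.4 to 1262 ± 73.2 CPM at 4 h in WT (log2 4.63, SE 0.33, adjusted p = 2e-11) and from 26.1 ± 5.91 to 608 ± 196 CPM in labelled KO (4.54, SE 0.38, adjusted p = 4.5e-10). Like Ifi205, Ifi211 at 18 h was 312, 786 and 336 CPM in labelled-KO numbers 2, 3 and 4 against 639 to 837 CPM in WT, and Mndal was 585, 1276 and 501 CPM against 802 to 911 CPM. Of the shared stretches of Ifi205 counted above, nearly all lie in Ifi211.

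The inflammasome that Aim2 feeds also rose. Of 14 inflammasome genes 12 rose and 2 fell at 4 h in each genotype, and at 18 h 11 rose in each, with 1 fall in WT and 2 in labelled KO. Of all genes, 35.1% rose and 43.0% fell at 4 h in WT and 33.5% and 41.5% in labelled KO, and at 18 h 34.8% and 36.3% in WT and 34.5% and 38.5% in labelled KO. Casp1, the protease of the complex, went from 70.2 ± 6.22 to 696 ± 15.9 and 548 ± 45.8 CPM at 4 h and 18 h in WT and from 76.2 ± 3.8 to 777 ± 40.2 and 938 ± 34.2 CPM in labelled KO. Il1b, its main cytokine substrate, was 2245 ± 249.9 and 936 ± 167 CPM in WT and 2059 ± 409 and 2139 ± 392 CPM in labelled KO at these times. The interaction at 18 h was higher for 5 of the 14 genes and lower for 1 (8.57% and 9.0% of all genes), with a median of 0.43.

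Interferon-stimulated effectors, antiviral genes such as Rsad2, Ifit2 and Cmpk2, rose in 25 of 25 cases at 4 h and 18 h in each genotype (33.5% to 35.1% of all genes). Their median was 5.29 at 4 h and 4.31 at 18 h in WT and 4.91 and 4.76 in labelled KO. At 18 h the interaction was higher for 6 of 25 and lower for 0 (8.57% and 9.0% of all genes), with a median of 0.57, and Rsad2 stood at 16960 ± 1367 CPM in WT and 30812 ± 2076 CPM in labelled KO. All 13 genes of type I interferon signalling rose at 4 h in each genotype (35.1% of all genes in WT and 33.5% in labelled KO), and 3 of 13 had a higher interaction at 18 h (8.57%). Of the 14 tested genes of DNA sensing through STING, 9 rose at 4 h in each genotype, while 4 fell in WT (43.0% of all genes) and 5 in labelled KO (41.5%). At 18 h 1 of these 14 had a higher and 1 a lower interaction, near the 8.57% and 9.0% of all genes.

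The genes most like each member in WT were sought by Pearson correlation of log2 CPM over the 12 WT libraries, which share 3 times, so the values are a description. Ifi208 and Ifi213 were closest to Ifit3 (r = 0.9994 and 0.9961), Ifi205 to Ifit1 (0.9997), Ifi209 to Rtp4 (0.9994) and Ifi214 to Phf11b (0.9968). Ifi204 was closest to its relative Mndal (0.9983). Aim2 was closest to Max (0.9966), Ifi203 to Gtf2f1 (0.9975) and Ifi207 to Irf2 (0.9912).

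Over all 21 libraries the genes most like Ifi202b were Depp1 (r = 0.9295), the histone genes H2ac18 (0.9075) and H2ac19 (0.8965), Tnfrsf10b (0.8752) and S100a8 (0.852). The lowest correlations were those of Cd5l (-0.906), Lman1 (-0.889) and Mcm5 (-0.8749). The libraries share genotype and time, so these values describe the genotype pattern of Ifi202b again. Tnfrsf10b, a death receptor, was 0.64 ± 0.266, 1.08 ± 0.353 and 1.28 ± 0.216 CPM in WT at 0, 4 and 18 h and 5.25 ± 1.09, 17.6 ± 0.846 and 3.97 ± 1.71 CPM in labelled KO. Cd5l, a secreted macrophage survival protein, was 388 ± 31.3, 343 ± 39.1 and 65.4 ± 11 CPM in WT and 11.7 ± 1.52, 8.4 ± 2.11 and 1.58 ± 0.437 CPM in labelled KO.

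Genes around the family on chromosome 1 were also apart between the genotypes, which is given as a description. Within 5 Mb of the outermost members 143 other genes had counts and 81 were tested. At 0 h labelled-KO libraries were all above WT for 12 of the 81 (14.8%, against 8.99% of all genes) and all below for 29 (35.8%, against 8.72%). At 4 h the counts were 11 above (13.6%, against 8.47%) and 18 below (22.2%, against 9.2%), and at 18 h 14 above (17.3%, against 18.2%) and 19 below (23.5%, against 17.6%). In the same direction at all 3 times were 9 of 81 (11.1%), 2 above and 7 below, against 1.59% of all genes.

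Among the 7 of these neighbours that the naming rule took, Tagln2, an actin-binding protein gene 1.19 Mb before the middle of the family, was 413 to 594 CPM in WT and 214, 403 and 215 CPM in labelled-KO numbers 2, 3 and 4 at 4 h. Alyref2, an mRNA export factor gene, was 2.62 to 4.39 CPM in WT and 0.425, 2.28 and 0.383 CPM at 4 h. Igsf8, an immunoglobulin family gene, was above WT, with 58.1, 51.0 and 61.8 CPM against 20.8 to 26.3 CPM at 0 h. In these 3 genes, and in Cd244a, number 3 was the labelled-KO library nearest to WT at each time, as it was for Ifi202b, Ifi208, Ifi209, Ifi213 and Ifi214.

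The others were not all alike in this respect. Pcp4l1 was 15.9 to 20.9 CPM in WT and 8.71, 7.5 and 7.71 CPM in labelled KO at 4 h, with no library apart, and number 3 was not nearest to WT at any time. Uap1, an enzyme gene of sugar nucleotide synthesis, had number 3 nearest to WT at 0 h and 4 h, and Sh2d1b1, a signalling adaptor gene, at 0 h and 18 h. At 4 h Sh2d1b1 was 0.0448 to 0.0937 CPM in WT and 0 CPM in each labelled-KO library, so its separation at 4 h rests on very few reads. Genotype label and chromosome 1 background cannot be told apart in this design.

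**Figure D4:**
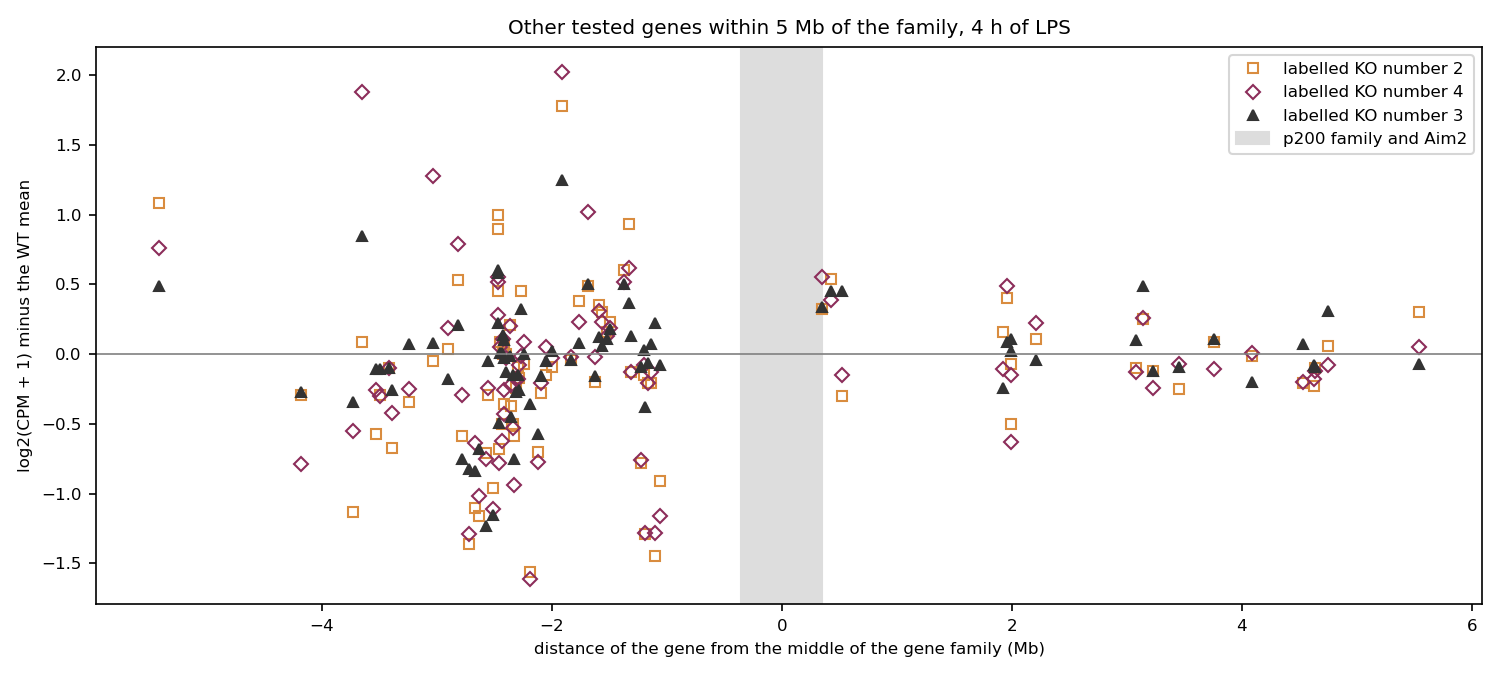
The difference of log2(CPM + 1) between each labelled-KO library and the WT mean at 4 h for the 81 tested neighbours, against the distance of the gene from the middle of the family, with the family's span shaded. For Tagln2 and Alyref2, left of the family, number 3 lies nearer to 0 than numbers 2 and 4.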

How the data were processed

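RNA was sequenced from 21 libraries. The deposited table holds estimated counts for RefSeq transcripts, as multiples of 0.5; the authors used CASAVA 1.8.2, HISAT2 2.1.0 and mm10, per the submitters' processing notes. Totals were 23478281.5 to 55852932 per library. Of 42361 transcript IDs, 42203 matched the RefSeq table and 65 GENCODE; the 93 without a name (0.232 to 2.229% of counts) were left out. Each gene was represented by its transcript with the highest mean; values per kilobase used the highest with a GENCODE length, which was another transcript for Ifi213. The test had been planned for whole counts, so estimated counts were rounded. Genes passing filterByExpr were fitted in edgeR 4.0.16 (R 4.3.3) with TMM factors, quasi-likelihood and 6 group means, with p-values adjusted by Benjamini-Hochberg and a threshold of 0.05. The procedure was tested on simulated data. Alternatives were DESeq2 1.42.0, limma-voom 3.58.1, other scalings and filters, summed transcripts, only the groups compared, replicate blocks and leaving out each library; leaving out labelled-KO number 3 at all times was added after seeing the data.

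Same-numbered WT libraries deviated together between 0 h and 4 h (correlations 0.23 to 0.32), where the block changed no member's call; in no other set was every such correlation over 0.1. Members and lists were chosen with earlier results of these data known. Besides all members, the named genes were the most correlated genes (5 highest and 3 lowest for Ifi202b, 1 for each other member), neighbours apart at all 3 times, and up to 3 genes per list by mean CPM. Promoters are RefSeq entries of GRCm38.p6.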

Additional observations from a re-analysis of the deposited data

Results flagged for a closer look

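WT number 1 stood apart from the other 3 WT libraries at 0 h in 6 members, by a test on the gap to the nearest library. It held 46.8 CPM of Aim2 (others 26.8 to 30.2), 308 of Ifi203 (128 to 135), 431 of Ifi204 (187 to 197), 749 of Ifi207 (383 to 392), 25.4 of Ifi208 (6.62 to 9.75) and 187 of Ifi209 (74.1 to 88.5). At 4 h WT number 1 stood apart in Ifi208, with 757 CPM, and in Ifi213, with 539 CPM (others 212 to 228). At 18 h WT number 4 stood apart in Ifi202b, with 1.76 CPM (others 0.244 to 0.391). Of 30 member and WT group pairs 9 were flagged, and chance flags about 1 in 20 groups; the members of a library are not independent.

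The response at 18 h was larger in labelled KO for Aim2 by 0.80, for Ifi207 by 0.95 and for Ifi209 by 1.36 on the log2 scale, by the interaction term of the edgeR fit. All 3 calls ended without labelled-KO number 3.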

How the results depend on the processing

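Of the members' values under the alternatives, 1950 kept their direction and call or stayed within the spread, 28 lost a call, 27 gained one, 34 without a test moved by more than the spread and 33 changed sign, none of them called in either fit. From 4 h to 18 h in labelled KO, where 1 member fell and 1 rose, 2 fell with median-of-ratios factors and 3 with only the groups compared; 3 fell and 2 rose with the replicate block and with limma-voom; 3 fell and 3 rose with the block nested in genotype; and 2 fell and 3 rose without labelled-KO number 3. The interaction at 18 h also called Ifi208 with the edgeR block nested in genotype (1.54, adjusted p = 0.027). It went from 3 members to 0 without labelled-KO number 3. The cause was not tested. By the rule set for pairing, the labelled-KO numbers at 4 h and 18 h share only a number: same-number correlations were 0.096 to 0.5, and 5 of 6 libraries correlated best with their own number, a hint from the data.

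Signs changed as follows. From 4 h to 18 h in WT, Ifi208 (0.04) and Ifi214 (0.03) were -0.03 with median-of-ratios factors, Ifi214 was -0.03 with DESeq2 and Ifi213 (0.27) was -0.01 with summed transcripts. In the interaction at 4 h, Ifi205 (0.12) was -0.01 with the replicate block, Ifi208 (0.56) was -0.09 with limma-voom, and without labelled-KO number 3 Ifi205, Ifi208 and Ifi213 were -0.17, -0.41 and -0.14. Without 1 library, Ifi208 ran from -0.08 to 0.41 and Ifi214 from -0.11 to 0.22 from 4 h to 18 h in WT, and in labelled KO Ifi208 from -0.18 to 3.2, Ifi209 from -0.32 to 0.46 and Ifi213 from -0.46 to 3.7. The interaction at 4 h ran from -0.09 to 0.63 for Ifi204, -0.23 to 0.34 for Ifi205, -0.07 to 0.35 for Ifi207, -1.31 to 1.46 for Ifi208, -1.9 to 2.37 for Ifi213 and -1.05 to 0.19 for Ifi214, and that at 18 h from -0.12 to 3.29 for Ifi213 and -0.39 to 0.85 for Ifi214.

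Leaving out each library in turn gave 10 members higher at 4 h in each genotype and at 18 h in labelled KO, and 9 to 10 at 18 h in WT. From 4 h to 18 h, 5 to 6 fell in WT, and in labelled KO 1 to 3 fell and 0 to 2 rose. The interaction held 0 to 1 members lower at 4 h and 2 to 4 higher at 18 h. Members not overlapping between the genotypes were 2 to 4 higher and 3 to 6 lower at 0 h, 2 higher and 4 to 7 lower at 4 h, and 6 higher and 1 to 4 lower at 18 h; fewer libraries overlap less by construction.

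Over all genes the interaction at 4 h (75 higher, 25 lower) gave 156 and 41 with DESeq2, 16 lower with only the groups compared, 47 and 16 without labelled-KO number 2 at 0 h, 46 higher without number 4 at 4 h and 13 lower without number 3 at any time. Ifi202b in WT rests on 7 to 91 reads per group, which limits its precision.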
